A study of Danio rerio with 4 samples.

Results

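Rab42a, nol12, tmem218, pla1a and anxa6 are 5 zebrafish genes picked because their transcripts were lower in Msp mutants than in wild type at both stages of an array study. They were found on the array through the RefSeq accession or symbol of each probe, which gave 12 of 43603 probes. Rab42a and nol12 had 1 probe each, tmem218 had 2, and pla1a and anxa6 had 4 each. In the files rab42a, nol12 and tmem218 carry the older names zgc:73061, zgc:56457 and zgc:63675. Since the genes were chosen by the mutant to wild-type ratio, that ratio is described here without a test. The change between the stages was not part of the choice and was tested. The error of that test combines a variance pooled over all probes with each probe's own gap between the genotype ratios of the stages. Those ratios chose the genes, so the p-values are not independent of the choice.

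Msp (macrophage stimulating protein, gene mst1) is a kringle-domain growth factor that is secreted, resembles the scatter factor Hgf and acts on a receptor tyrosine kinase. RNA came from whole embryos of strain WIK, raised in E3 medium at 28 °C without treatment, in 4 groups: Msp mutants at 6 days post fertilization (dpf), wild type at 6 dpf, Msp mutants at 3 dpf and wild type at 3 dpf. Each group was taken as 1 pool of RNA from 30 embryos, and the labels name neither the allele nor its position in the gene. Both pools of a stage were hybridised on 2 two-colour Agilent arrays, with the mutant in Cy5 on array 1 and in Cy3 on array 2.

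The 4 arrays therefore hold 4 pools, and a stage has no biological replicate of either genotype. Values given as ± are the SD of the 2 dye-swapped arrays and measure labelling and hybridisation only. All arrays lay on 1 slide. The number of arrays limits the precision. Over all probes that passed the filter on dim signals, the dye-swapped ratios correlated at 0.41 at 6 dpf and 0.44 at 3 dpf. Of 41 marker genes for 9 embryonic tissues that were on the array, 39 were well above background in every pool. Transcript of mst1 itself was lower in the mutant pools, with a log2 ratio of mutant over wild type of -1.12 ± 0.16 at 6 dpf and -0.65 ± 0.06 at 3 dpf.

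The products of the 5 genes belong to different processes. Rab42a is a small GTPase of the Rab family, whose members cycle between a GTP-bound and a GDP-bound form and direct membrane traffic. Nol12 is a nucleolar protein, and its yeast counterpart Rrp17 is an exonuclease that trims precursors of ribosomal RNA. Tmem218 is a membrane protein of the ciliary transition zone, the gate at the base of the cilium. Pla1a is a secreted phospholipase that in mammals cleaves phosphatidylserine and releases lysophosphatidylserine, a lipid mediator. Anxa6 is an annexin, one of a family of proteins that bind membrane phospholipids when calcium is present.

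At their brightest probe, the 5 genes had log2 ratios between -2.06 and -0.95 at 6 dpf, with the median at -1.54, and between -1.54 and -0.92 at 3 dpf, with the median at -1.24. Read as the mean over all probes of each gene, dim ones included, their median was -0.84 at 6 dpf and -0.86 at 3 dpf, and pla1a stood at -0.25 at 6 dpf and -0.29 at 3 dpf. The median of all 31043 probes was 0.00 at 6 dpf and 0.01 at 3 dpf, and their SD 0.21 and 0.20. Rab42a, nol12 and pla1a reached a mean log2 ratio of -1 or below at both stages, with at least 0.5 on each array and wild-type signal well above background. That rule was met by 12 of 15032 genes, or 0.0798%, and nothing is read from this share because the same contrast chose the genes. Anxa6 missed the rule at 6 dpf (-0.95) and tmem218 at 3 dpf (-0.92), which puts both just outside it. Just inside it lay plgrkt, with -1.04 at 6 dpf and -1.15 at 3 dpf. Another gene just outside it was thbs3b, with -1.08 at 6 dpf and -0.95 at 3 dpf.

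Of the 12 probes, 9 passed the filter, which asked that both arrays of a pool read the probe well above background, in 1 pool or more. On all 4 arrays 8 of the 12 were lower in mutants, and those 8 are among the 9. Over all 31043 probes that passed, 12.3% were lower on all 4 arrays, and because the genotype ratio chose the genes nothing is read from the contrast.

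Rab42a had the lowest ratios of the 5 genes at both stages. Its only probe (A_15_P206096) stood at -2.22 and -1.90 on the 6 dpf arrays and at -1.56 and -1.51 on the 3 dpf arrays. The mean ratio was -2.06 ± 0.23 at 6 dpf and -1.54 ± 0.04 at 3 dpf, so mutant signal was 23.9% of wild type at 6 dpf and 34.5% at 3 dpf. With loess both 6 dpf arrays lay below both 3 dpf arrays. With median centring in place of loess the arrays stood at -1.96 and -2.25 at 6 dpf and -1.21 and -1.93 at 3 dpf. The stages then nearly met only between opposite dye orientations. In the same orientation 6 dpf was lower on both arrays, and the mean ratios differed by -0.53 between the stages. The unprocessed spots were lower in mutants than in wild type on every array. At 6 dpf the spot read 516.5 in mutants and 1622 in wild type on array 1, and 449 in mutants and 2389.5 in wild type on array 2. At 3 dpf it read 556.5 in mutants and 990 in wild type on array 1, and 426 in mutants and 1887.5 in wild type on array 2. The gap between the unprocessed spots was wider on array 2, where wild type was in Cy5. Local background was 83 to 90 in red and 44 to 47 in green.

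Nol12, the nucleolar gene, was measured by 1 probe (A_15_P620112). Its ratio was -1.46 and -1.64 on the 6 dpf arrays, and -1.32 and -1.33 on the 3 dpf arrays. The means were -1.55 ± 0.13 at 6 dpf and -1.33 ± 0.01 at 3 dpf, or 34.1% and 39.9% of the wild-type signal. With loess, all 4 arrays fell within a band of about 0.3 log2 units, narrower than for rab42a, and the stages did not overlap. With median centring in place of loess the arrays stood at -1.23 and -1.94 at 6 dpf and -1.04 and -1.66 at 3 dpf. The stages then overlapped only between opposite dye orientations. In the same orientation 6 dpf was lower on both arrays, and the mean ratios differed by -0.23 between the stages. With a single probe each, the array cannot show whether the ratios of rab42a and nol12 hold along the whole transcript.

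**Figure D1:**
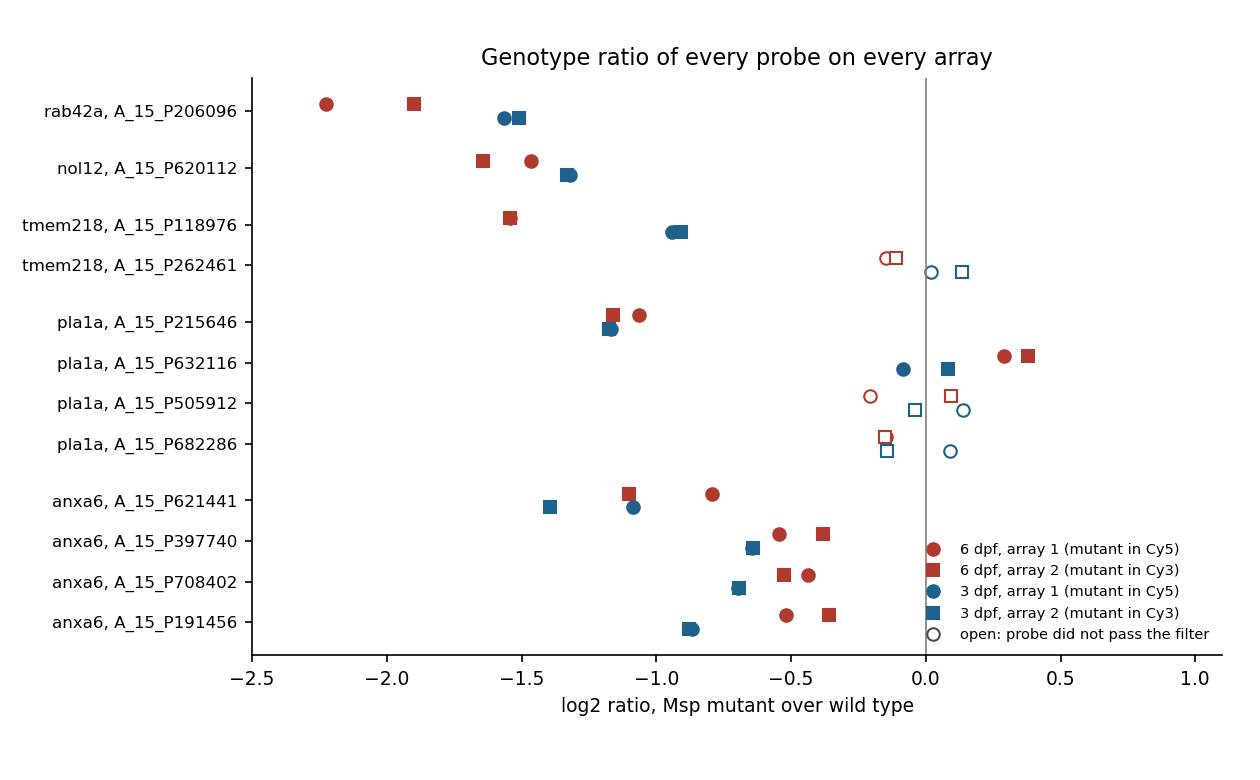
Log2 ratio of mutant over wild type (horizontal axis) for each of the 12 probes of the 5 genes, with 6 dpf in red, 3 dpf in blue, circles for array 1 and squares for array 2. Open symbols are probes too dim to pass the filter. The 4 anxa6 probes lie left of 0 on all arrays, whereas 1 of 4 pla1a probes and 1 of 2 tmem218 probes do.

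Tmem218, the transition zone gene, had the largest gap between the stages. The probe to its RefSeq transcript (A_15_P118976) stood at -1.54 and -1.54 on the 6 dpf arrays, and at -0.94 and -0.91 on the 3 dpf arrays. Mutant signal was 34.4% of wild type at 6 dpf and 52.7% at 3 dpf. With loess the mean ratios differed by -0.62 between the stages, and the SD was 0.00 between the 6 dpf arrays and 0.03 between the 3 dpf arrays. These SDs do not measure the spread between pools. With median centring in place of loess the arrays stood at -1.31 and -1.84 at 6 dpf. At 3 dpf they then stood at -0.61 and -1.30, so the stages nearly met only between opposite dye orientations. In the same orientation 6 dpf was lower on both arrays, and the mean ratios differed by -0.62 between the stages. The second probe (A_15_P262461) matches an EST that the files assign to the same gene. None of the 4 arrays read it well above background in either genotype, and its ratios of -0.15 and -0.11 at 6 dpf and 0.02 and 0.13 at 3 dpf therefore carry no direction.

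For pla1a, the phospholipase, 1 of 4 probes carried the difference. Probe A_15_P215646 stood at -1.07 and -1.16 on the 6 dpf arrays and at -1.17 and -1.18 on the 3 dpf arrays. Its means were -1.11 ± 0.07 at 6 dpf and -1.17 ± 0.01 at 3 dpf, and the genotype gap differed by 0.06 between the stages (0.25 with Agilent's processed signals). It was the only probe of the gene well above background in all 4 pools.

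The other 3 pla1a probes were annotated to the same RefSeq transcript and were not lower in mutants on all 4 arrays. Probe A_15_P632116 stood at 0.29 and 0.38 on the 6 dpf arrays, higher in mutants, and at -0.08 and 0.08 on the 3 dpf arrays. It was well above background on both mutant arrays but on 1 of 2 wild-type arrays at each stage. The size of this ratio depends on the processing. Agilent's processed signals gave 1.04 at 6 dpf and 0.36 at 3 dpf, higher in mutants on all 4 arrays, and the authors' deposited table holds 1.04 as the 6 dpf mean and 0.56 on array 2 of 3 dpf. On array 1 of 6 dpf its spot read 141 over a local background of 84 in mutants and 115.5 over 48 in wild type. On array 2 it read 139 over 48 in mutants and 118 over 87 in wild type. Before normalization the mutant spot of array 1 thus stood less far above its background than the wild-type spot. Probe A_15_P505912 was well above background on 1 of 2 arrays at most in any pool, and A_15_P682286 on none. Ratios of these dim probes lay between -0.21 and 0.14. In the authors' deposited table their 6 dpf means are -0.43 for A_15_P505912 and -0.56 for A_15_P682286, beside -1.42 for A_15_P215646. Their spots and those of A_15_P632116 never exceeded 145.5, while A_15_P215646 read 219 to 276 in mutants and 416.5 to 611 in wild type at 6 dpf. The files do not say where in the transcript each probe lies, and the part of probe position in the disagreement was not tested.

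Anxa6, the annexin, was the gene best covered, and its probes shared a direction. All 4 were lower in mutants on all 4 arrays. The brightest (A_15_P621441) stood at -0.79 and -1.10 on the 6 dpf arrays and at -1.08 and -1.39 on the 3 dpf arrays. It averaged -0.95 ± 0.22 at 6 dpf and -1.24 ± 0.22 at 3 dpf. The arrays of the stages overlapped only between opposite dye orientations, and in the same orientation the ratio was higher at 6 dpf on both arrays. The dye orientations of this probe differed by about 0.31 at each stage, the mutant being lower where it was labelled with Cy3.

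The other 3 anxa6 probes are dimmer, and with background correction at offset 50 their ratios were nearer to 0. Probe A_15_P397740 averaged -0.46 ± 0.11 at 6 dpf and -0.64 ± 0.00 at 3 dpf. Probe A_15_P708402 averaged -0.48 ± 0.06 at 6 dpf and -0.69 ± 0.00 at 3 dpf. Probe A_15_P191456 averaged -0.44 ± 0.11 at 6 dpf and -0.87 ± 0.01 at 3 dpf. In these values the 6 dpf arrays of each of the 3 lay above both 3 dpf arrays. Size and order of the 3 depend on the processing. With Agilent's processed signals A_15_P397740 stood at -0.89 at 6 dpf and -0.83 at 3 dpf, A_15_P708402 at -1.24 at both stages and A_15_P191456 at -1.17 at 6 dpf and -1.81 at 3 dpf, beside -1.10 and -1.39 for A_15_P621441. The gap was then narrower at 6 dpf on A_15_P621441 and A_15_P191456 but not on the other two. In the authors' deposited table the 6 dpf means are -0.89, -1.24 and -1.17, and array 2 of 3 dpf reads -0.75, -1.24 and -1.61, in the same order of probes. All 4 probes were below 0 on all arrays under each of these settings. With offset 50, mutant signal over the 4 probes was 51.9% to 73.8% of wild type at 6 dpf and 42.4% to 64.1% at 3 dpf. The 4 probes read the same RNA pools and count as 1 gene. One of them, A_15_P708402, was well above background on 1 of 2 mutant arrays at 6 dpf.

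Among the 12 genes that met the size rule at both stages, 6 had more than 1 measured probe, and in 3 of these (mhc1ze, zgc:153522 and cela1.6) every measured probe was lower on all arrays. Krt18b, plgrkt and pla1a had 1 measured probe each that was not.

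**Figure D2:**
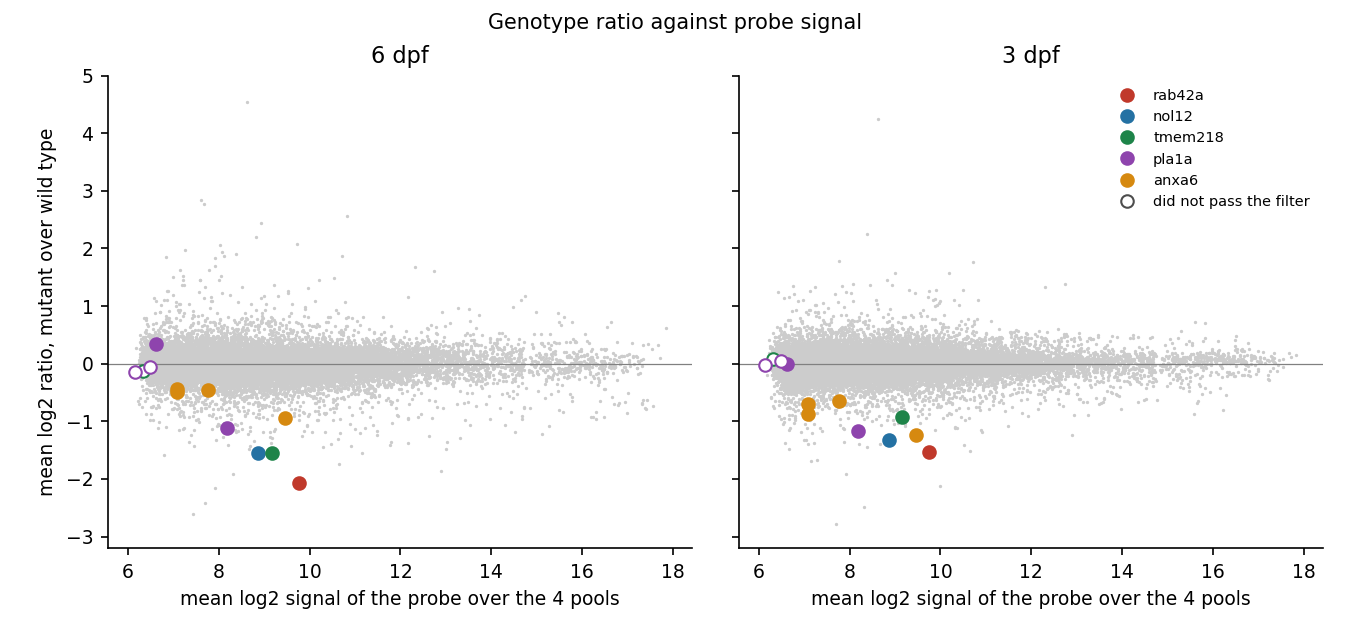
Mean log2 ratio of mutant over wild type (vertical axis) against the mean log2 signal of each probe over the 4 pools (horizontal axis), at 6 dpf on the left and 3 dpf on the right. Grey points are all 31043 probes past the filter, and coloured points are the 12 probes of the 5 genes, open where the probe did not pass. The pla1a and tmem218 probes that were not lower in mutants on every array sit at the low end of the signal range. Their mean log2 signals were 6.14 to 6.62, against 8.18 for the pla1a probe and 9.16 for the tmem218 probe that were lower in mutants. The pla1a probe at 6.62 was higher in mutants at 6 dpf, with a ratio of 0.34.

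**Figure D3:**
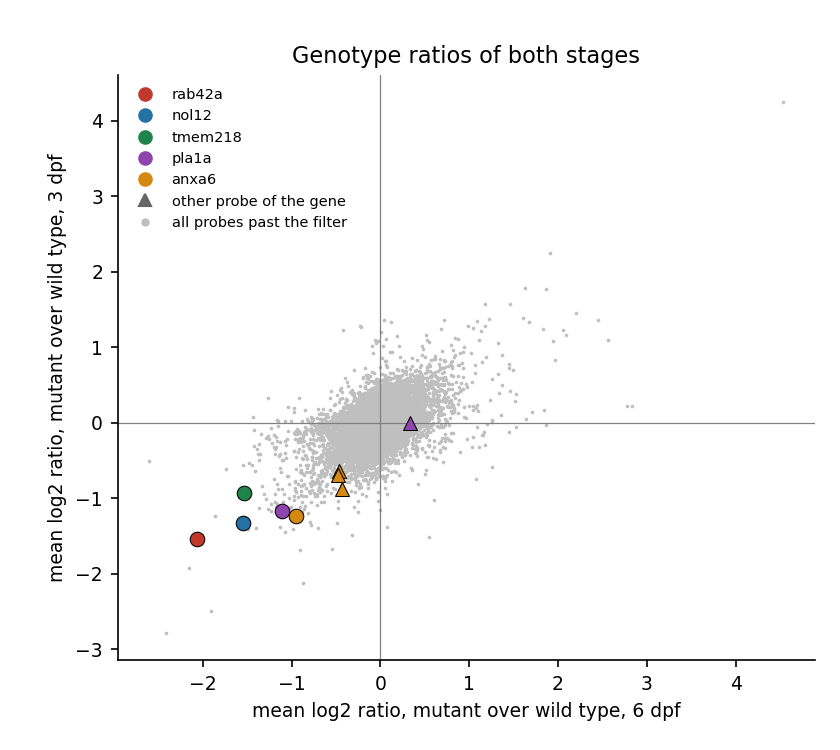
Mean log2 ratio of mutant over wild type at 6 dpf (horizontal axis) against 3 dpf (vertical axis) for all probes past the filter in grey. Circles are the brightest probe of each of the 5 genes and triangles their other probes past the filter. The circles lie in the lower left, with rab42a at -2.06 and -1.54.

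The stage comparison asked what these genes do between 3 and 6 dpf, and it used normalized log2 signals of the 4 pools. Limma fitted stage with genotype as a term over all 31043 probes, and a call needed a Benjamini-Hochberg adjusted p under 0.05 and a log2 change of at least 1. By this rule 10.1% of all probes were called, and 0 of the 9 measured probes of the 5 genes. On the adjusted p alone, 7 of the 9 were under the threshold, but so were 60.9% of all probes. With 4 pools the fit leaves 1 residual degree of freedom per probe, set by how far the genotype ratio differs between the stages. The error used in the test is that residual moderated toward a variance pooled over all probes. Each stage lies on its own arrays, so a shift between arrays stays in the stage change but not in its error.

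Rab42a, nol12 and pla1a had higher signal at 6 dpf than at 3 dpf in both genotypes. For rab42a the log2 signal was 9.08 in the 6 dpf mutant pool and 11.14 in the 6 dpf wild-type pool, against 8.64 in mutants and 10.17 in wild type at 3 dpf. Its change from 3 to 6 dpf was 0.44 in mutants and 0.97 in wild type, and 0.71 in the fit (SE 0.13, limma adjusted p = 0.0034). The 6 dpf mutant pool thus remained below the 3 dpf wild-type pool.

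For nol12 the log2 signal was 8.49 in mutants and 10.05 in wild type at 6 dpf, against 7.81 in mutants and 9.13 in wild type at 3 dpf. Its fitted change of 0.80 (SE 0.09, limma adjusted p = 0.00037) was the largest in size among the 9 probes. The change was 0.69 in mutants and 0.91 in wild type. For pla1a at A_15_P215646 the log2 signal was 7.94 in mutants and 9.05 in wild type at 6 dpf, against 7.28 in mutants and 8.45 in wild type at 3 dpf. The change was 0.66 in mutants and 0.60 in wild type, so both genotypes moved by about the same amount (fit 0.63, SE 0.07, limma adjusted p = 0.00055). The dim pla1a probe A_15_P632116 had a fitted change of 0.04 (SE 0.10, limma adjusted p = 0.738).

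Anxa6 went the other way, with lower signal at 6 dpf than at 3 dpf on all 4 probes and in both genotypes. At A_15_P621441 the log2 signal was 8.61 in mutants and 9.56 in wild type at 6 dpf, against 9.21 in mutants and 10.45 in wild type at 3 dpf. The fitted change was -0.75 (SE 0.09, limma adjusted p = 0.00071), made up of -0.60 in mutants and -0.89 in wild type. The other 3 probes had fitted changes of -0.47, -0.39 and -0.34, with limma adjusted p of 0.0027, 0.0076 and 0.0388. The last of these, for A_15_P191456, was 0.0621 without background subtraction, 0.0665 when array 1 of 6 dpf was left out, and 0.212 when array 2 of 3 dpf was (fitted change -0.18). With offset 50 the stage difference was nearer to 0 in mutants on each of the 4 probes, but not on A_15_P397740 and A_15_P708402 with Agilent's processed signals.

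For tmem218 the genotypes parted. Its log2 signal was 8.50 in mutants and 10.05 in wild type at 6 dpf, against 8.59 in mutants and 9.51 in wild type at 3 dpf. The change from 3 to 6 dpf was -0.08 in mutants and 0.53 in wild type, and the fit with a common stage effect gave 0.22 (SE 0.14, limma adjusted p = 0.213). Compared dye by dye, the mutant change was -0.05 and -0.12 and the wild-type change 0.55 and 0.51. With 1 pool per genotype and stage the difference between these changes could not be tested for any of the 5 genes. In RNA of whole embryos, fewer cells that carry a transcript and less transcript per cell cannot be told apart.

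**Figure D4:**
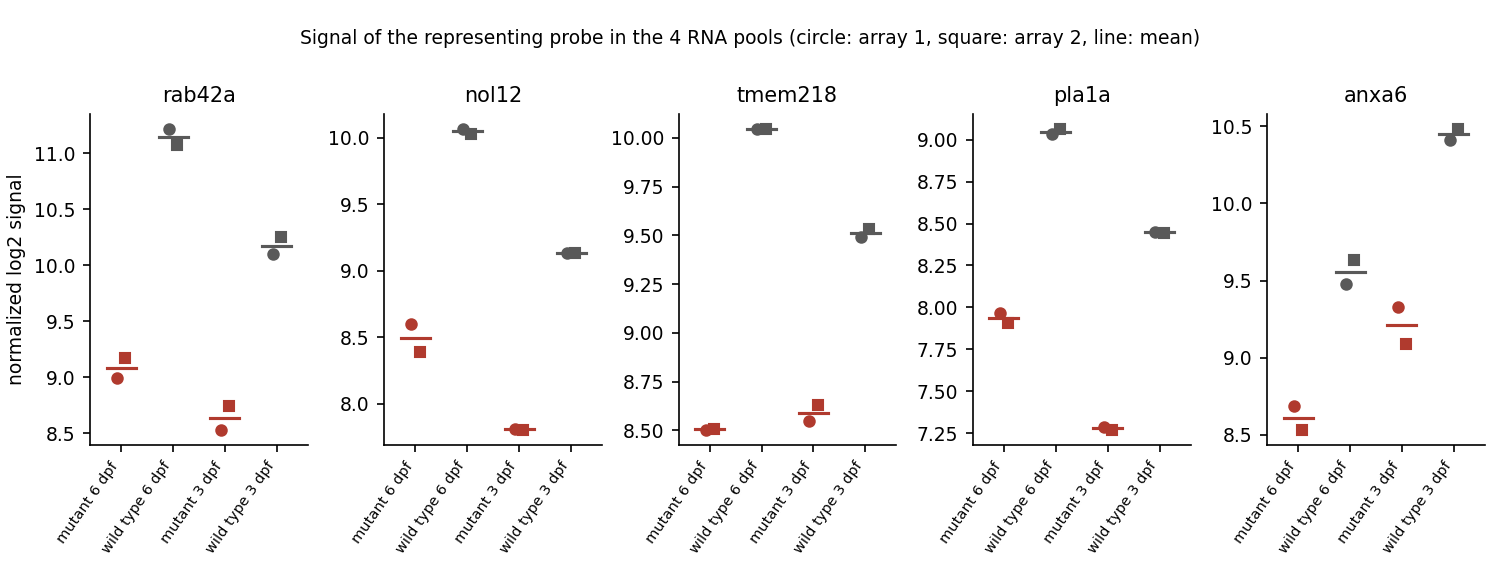
Normalized log2 signal (vertical axis, separate for each gene) of the brightest probe in the 4 pools, with mutants in red and wild type in grey, circles for array 1, squares for array 2 and lines for their mean. In all 5 panels both mutant pools lie below the wild-type pool of their stage, and the 6 dpf mutant pool also lies below the 3 dpf wild-type pool.

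To name the genes whose pattern over the 4 pools was most like each of the 5, the log2 signals of each gene were centred on their mean and compared by Euclidean distance with 11619 genes that have a symbol. The likeness includes the genotype gap that chose the genes. It also includes the stage change, so similar stage changes among the nearest genes follow from how they were picked. The 5 genes themselves left aside, nearest to rab42a was bach1b, a heme-regulated transcriptional repressor (distance 0.41), with ratios of -2.15 at 6 dpf and -1.92 at 3 dpf. Next came krt18b (0.70) and cdk5r2b (0.76). Nearest to nol12 were krt18b (0.36), cdk5r2b (0.41) and the transferrin receptor tfr2 (0.51). Krt18b, a keratin of simple epithelia, was also nearest to pla1a (0.06), followed by plcd4b and the iron hormone hamp (both 0.34). Krt18b had changes from 3 to 6 dpf of 0.58 in mutants and 0.64 in wild type, beside 0.66 and 0.60 for pla1a.

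Tmem218 was nearest to epc2 (0.26), the muscle gene klhl41b (0.38) and plgrkt (0.39). From 3 to 6 dpf klhl41b changed by 0.14 in mutants and 0.92 in wild type, and epc2 by 0.18 and 0.42. Plgrkt went the other way, with 0.32 in mutants and 0.21 in wild type. None of these 3 genes had lower signal at 6 dpf in mutants. Anxa6 was nearest to mtx1b (0.21), a gene of mitochondrial import, to auh (0.26), an enzyme of leucine breakdown, and to tecrb (0.28), an enzyme of very long chain fatty acid synthesis. These 3 also had lower signal at 6 dpf than at 3 dpf in both genotypes, with changes of -0.76 to -0.52 in mutants and -1.13 to -0.81 in wild type. Among the 5 genes themselves, nol12 and pla1a were the closest pair (0.37) and rab42a and anxa6 the farthest (1.67).

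Relatives of each gene were read from lists made for its family or process, at the brightest probe and without the 5 genes. The 5 genes were chosen for low ratios and their relatives were not, so nothing is read from the gap between them. For genotype, limma set the mean of the 2 stage ratios against 0, which leaves 1 residual degree of freedom and called 0.705% of all genes higher and 0.858% lower in mutants. Of 221 listed relatives that were measured, 3 were called. None of the 221 was called with Agilent's processed signals or with the mean of each gene's probes that passed the filter. Without array 2 of 3 dpf 9 were called. Stage was tested as above and called 5.2% of all genes higher and 6.05% lower at 6 dpf.

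Of 58 other Rab GTPases, 1 was called for genotype. It was rab4a, a Rab of early endosomes, which rose in mutants (log2 0.73, limma adjusted p = 0.0185), with ratios of 0.61 ± 0.24 at 6 dpf and 0.85 ± 0.23 at 3 dpf. Rab9a and rab43, next by p, stood at -0.36 and -0.31 over both stages (limma adjusted p = 0.0892 and 0.146). The median ratio of the list was 0.01 at 6 dpf and 0.02 at 3 dpf, the same as for all genes within 0.01. Its lowest value at 6 dpf was -0.39, beside -2.06 for rab42a. Between the stages rab40b (1.59) and rab25b (1.01) rose to 6 dpf and rab13 (-1.24) and rab25a (-1.31) fell (limma adjusted p between 2.01e-05 and 0.000411).

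Of 86 other nucleolar and rRNA processing genes, imp4, a component of the machinery that makes the small ribosomal subunit, was called. It fell in mutants (log2 -0.67, limma adjusted p = 0.0194), with -0.76 ± 0.06 at 6 dpf and -0.58 ± 0.16 at 3 dpf. Noc3l (-0.41) and wdr46 (-0.35) followed by p and were not called (limma adjusted p = 0.0712 and 0.106). The median of the list was -0.26 at 6 dpf (-0.29 on array 1 and -0.22 on array 2) and -0.03 at 3 dpf, beside 0.01 for all genes at each stage. Of the 86, 28 were lower in mutants on all 4 arrays (32.6%, against 12.3% of all genes). From 3 to 6 dpf 15 of the 86 rose and 1, exosc6 (-1.14), fell. The helicase ddx21 (2.49), nop53 (2.02) and pno1 (1.75) had the smallest p. The list and nol12 therefore both had higher signal at the later stage, nol12 by 0.80 and the list by a median of 0.32.

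Of 45 other transition zone and ciliary genes, 0 were called for genotype by limma at the adjusted p, and the smallest adjusted p was that of traf3ip1 (log2 0.30, limma adjusted p = 0.138). Wdr35 (0.27) and ift22 (0.28), both parts of intraflagellar transport, came next. The median of the list was 0.09 at 6 dpf and 0.03 at 3 dpf, and its lowest member at 6 dpf stood at -0.17, against -1.54 for tmem218. None of the 45 was called between the stages. Tmem237a (0.88), bbs12 (0.80) and ift27 (0.68) had the smallest p there and missed the log2 change of 1.

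Of 15 other phospholipases, lipases and lysophospholipid receptors, 0 were called for genotype. The carboxyl ester lipases cel.2 (-1.43 ± 0.04 at 6 dpf and -0.10 ± 0.00 at 3 dpf) and cel.1 (-0.71 ± 0.02 at 6 dpf and -0.08 ± 0.28 at 3 dpf) were lower in mutants mainly at 6 dpf, with limma adjusted p of 0.297 and 0.304 over both stages. Cel.2 and cel.1 rose from 3 to 6 dpf by 4.99 and 2.63. The endothelial lipase lipg stood at -0.19 over both stages and pla2g12b at -0.04. The list median was 0.04 at 6 dpf and -0.01 at 3 dpf.

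Of 17 other annexins and S100 partners, anxa4 was called for genotype. It fell in mutants (log2 -0.46, limma adjusted p = 0.0493), with -0.51 ± 0.01 at 6 dpf and -0.41 ± 0.10 at 3 dpf. Anxa5a (-0.45) and anxa1b (-0.42) lay just above the threshold (limma adjusted p = 0.0533 and 0.0549). The list median was 0.01 at 6 dpf and -0.07 at 3 dpf. Of the 17, 5 were lower in mutants on all 4 arrays (29.4%, against 12.3% of all genes). That share was 12.1% in the Rab list, 8.89% in the ciliary list and 13.3% in the lipase list. Between the stages anxa1a rose (1.08) and anxa1b (-1.64) and anxa3a (-1.92) fell. Over the list the median stage change was -0.34, beside -0.75 for anxa6 and -0.02 for all genes.

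**Figure D5:**
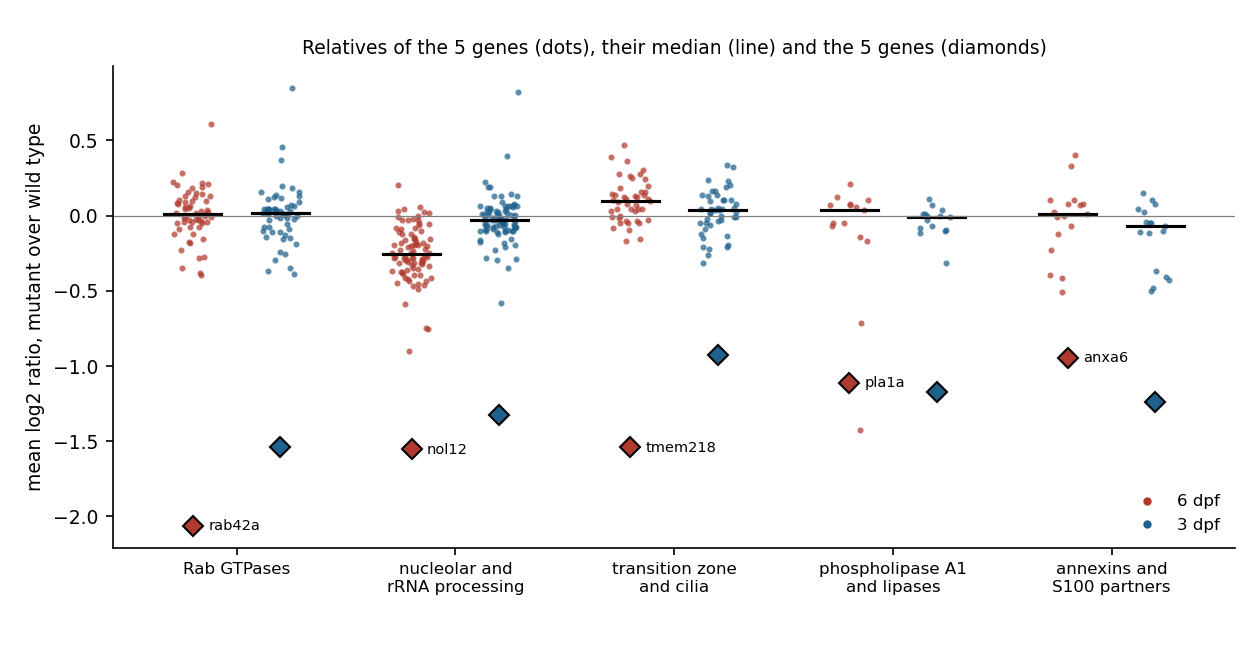
Mean log2 ratio of mutant over wild type (vertical axis) for the measured members of the 5 family lists (horizontal axis), at 6 dpf in red and 3 dpf in blue. Dots are relatives, black lines their median and diamonds the 5 genes. The black line of the nucleolar list sits at -0.26 at 6 dpf and at -0.03 at 3 dpf, and the only relative below -1 is cel.2 at 6 dpf.

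The place of the genes in the genome was taken as gene order from the reference table of a later assembly, since coordinates of the array's own build were not used here. The 5 genes lie on 5 different chromosomes, and 0 of them share one with mst1. Rab42a lies between ctps1a and gmeb1, tmem218 between pknox2 and robo4, pla1a between hsd3b1 and popdc2, and anxa6 between rmnd5b and n4bp3. The genes next to nol12 were not measured. The measured genes next to them stood at -0.27 at 6 dpf and -0.07 at 3 dpf for ctps1a, -0.11 and 0.01 for pknox2, 0.15 and 0.24 for popdc2, and -0.34 and -0.24 for rmnd5b. Over the 10 nearest measured genes on each side of the 5, 100 in all, 9 were lower in mutants on all 4 arrays, against 12.3% of all genes. None of the 100 was called lower, with a lowest ratio of -0.69 at 6 dpf and -0.40 at 3 dpf. A single one, pdxka near pla1a, a kinase of vitamin B6, was called higher (0.93 at both stages, limma adjusted p = 0.0063).

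The chromosome of mst1 held 4 genes that met the size rule at both stages in either direction, of 552 measured (0.725%), beside 18 of 12551 (0.143%) over all chromosomes. These were zgc:158846 (1.86 at 6 dpf and 1.77 at 3 dpf), tcta (1.32 and 1.06), the mitochondrial translation factor mtif2 (1.04 and 1.26) and krt18b (-1.18 and -1.12). The 5 genes are not among them.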

How the data were processed

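The 4 two-colour Agilent arrays of whole zebrafish embryos were taken as Feature Extraction files. Per the file headers these came from version 10.5.1.1 with protocol GE2_105_Dec08 and a design annotated to danRer6. Another version, 8.5.1.1, stands in the submitters' processing notes. The deposited files hold, for Cy3 (green) and Cy5 (red), linear intensity of the spot (median) and of its surroundings, a processed intensity that per the file headers is background-subtracted and dye-normalized, and a log10 ratio of red over green. The authors' deposited series table holds log2 ratios of mutant over wild type in the columns of array 2 (3 dpf) and array 1 (6 dpf), and in that of array 2 (6 dpf) a log2 ratio averaged over this array and array 1 (median difference 0.00221). Its deposited column for array 1 of 3 dpf had a correlation of -0.00466 with that array, was recorded as a score and was not used. Each of its columns has a median of 0.

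Each array had 43803 spots other than controls. Left out were 9 controls whose cells were shifted in 1 file, and 5 to 25 outlier spots per array. No spot was saturated. Of the probes, 59.6% to 69.2% were well above background in green and 73.5% to 74.8% in red. Normexp (offset 50) on median signals corrected the background, and ratios were normalized by loess with controls at weight 0. Signs were turned to mutant over wild type, and the 2 arrays of each stage were averaged. These arrays were taken as a dye swap of 1 RNA pool per genotype, which the labels do not state. For signals per pool, Aquantile normalization followed and both dyes were averaged. The filter kept probes that both arrays of a pool read well above background, in 1 pool or more (31043), and a gene was read at its brightest probe. Probes were named through RefSeq accessions (25173), symbols (3192) or older symbols (1425) of the GRCz12tu gene table. A further 5555 probes kept a symbol found only in the array files and were counted as genes under it, and 8258 had no name. Tests used limma 3.58.1 in R 4.3.3, with Benjamini-Hochberg adjustment over all probes kept. The fits were also run on simulated data with independent noise in each value, which leaves out any shift between arrays. Other steps used Python 3.11.15, numpy 2.4.6, pandas 2.3.3 and matplotlib 3.10.9.

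Stage was fitted on 4 pools with genotype as a term, and genotype of the relatives over 2 stage values against 0. Labels do not say whether pools are separate clutches. In both fits the residual of a probe is the difference between the genotype ratios of the stages. Limma moderated the resulting error toward a variance pooled over all probes. The arrays of a stage were averaged before the fit, and there are no replicate pools. Noise of the arrays is part of those means, but the p-values do not measure the spread of arrays or of pools. Named were the 5 genes with every probe, mst1, per gene the 3 nearest patterns, per list the 3 smallest p of each fit and any genotype calls, genes on the mst1 chromosome past the size rule at both stages, and genes next to the 5. Thbs3b, plgrkt, mhc1ze, zgc:153522, cela1.6, pdxka, exosc6, rab25b and the adjacent genes were picked outside this rule, after seeing their values. The 5 genes and all lists were chosen with earlier results of these data known. Alternatives were another offset, no background subtraction, processed signals, median centring, the deposited table, other normalization between arrays, no filter, 1 or all probes per gene, and each array left out.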

Additional observations from a re-analysis of the deposited data

Results flagged for a closer look

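The change from 3 to 6 dpf had opposite signs in mutants and wild type for tmem218 at A_15_P118976, on both dyes. It was -0.08 in the mutant pools and 0.53 in the wild-type pools, a difference of -0.62. The mutant value is close to no change, so a fall in mutants is not shown. Opposite signs were also seen for the dim pla1a probe A_15_P632116, with 0.21 in mutants and -0.13 in wild type. There the difference was 0.34 (0.68 with Agilent's processed signals). In wild type, 1 of 2 arrays at each stage read this probe well above background. Neither difference was tested, as each genotype and stage has 1 pool.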

How the results depend on the processing

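Mutant and wild type of a stage share each array, so every ratio is paired by array. The labels carry no replicate numbers that would pair pools across the stages, and no further block was fitted. All 80 recomputed ratios of the 5 genes at their brightest probe or as a mean of probes stayed below 0. The genes were chosen for low ratios on these same arrays, so nothing is read from that sign. The dim probes moved most: at 6 dpf A_15_P708402 was -0.35 without background subtraction, -0.76 with offset 10 and -1.24 with processed signals, and A_15_P632116 was 0.25, 0.58 and 1.04 in that order. The median ratio of the 5 genes at 6 dpf was -1.67 with offset 10, -1.45 without background subtraction, -1.75 with Agilent's processed signals and -1.75 in the authors' deposited table. It was -0.84 when each gene took the mean over its probes, which brings in the dim probes of pla1a and tmem218, and lay between -1.54 and -1.46 on single arrays. At 3 dpf it was -1.40 with offset 10, -1.66 with processed signals, -1.64 in the authors' deposited table (array 2 only), -0.86 with the mean of all probes, and between -1.33 and -1.17 on single arrays. Between 8 and 9 of the 12 probes were lower on all arrays used, under every alternative run. No probe of the 5 genes was called between the stages under any alternative run, and no fitted change turned its sign. Probes called between the stages numbered 3130, but 7334 with processed signals, 1691 with 1 probe per gene, and 3053 to 3342 with 1 array left out. Probes called for genotype numbered 480, but 315 without background subtraction, 84 with processed signals, 778 without the filter, 127 with 1 probe per gene, and 426 to 885 with 1 array left out, the highest without array 2 of 3 dpf. Of the relatives, 3 were called for genotype, but 0 with processed signals or the mean of all probes past the filter. Without the filter 6 were called, and with 1 array left out 2 to 9 (9 without array 2 of 3 dpf). These calls therefore depend on the setting. Between the stages 25 relatives were called, but 40 with processed signals, 31 with offset 10 and 24 to 26 with 1 array left out. With the mean of all probes past the filter 18 were called. Apart from fewer tests with 1 probe per gene, the cause of these differences was not tested. A fit of single channels with a dye term was not run.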
